A study of Homo sapiens with 12 samples.

Results

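The clustered histone genes of the human genome were followed in HEK 293T cells treated with PDP, a small molecule known here only by its code name. They were taken by symbol from the RNA tables, as every gene whose symbol starts with HIST1H, HIST2H, HIST3H or HIST4H, with no minimum level. The 14 matching symbols that mark pseudogenes were left out, which gave 75 of the 58083 genes in the tables. By family these were 6 H1, 17 H2A, 23 H2B, 14 H3 and 15 H4 genes. By place they were 55 genes of cluster 1 on chromosome 6, 15 genes of cluster 2 and 4 genes of cluster 3 on chromosome 1, and HIST4H4 alone on chromosome 12. RefSeq lists 70 of them as protein-coding and 5 H2B genes of clusters 2 and 3 as pseudogenes.

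HEK 293T is a cell line derived from human embryonic kidney, with the large T antigen of SV40. One aim of the series was to locate G-quadruplexes, four-stranded structures of guanine-rich DNA, by pull-down with a small molecule, and another to measure transcripts after PDP. Of the 6 groups of 2 samples, 4 were RNA groups, namely PDP at 1 µM for 3 h, for 24 h or for 72 h, and DMSO for 3 h, and a pull-down from annealed genomic DNA was called against its input. All were grown in the same medium with serum. RNA libraries were made from captured poly(A) RNA with a stranded kit. Levels are FPKM, fragments scaled to transcript length and library size, which allows levels of different genes to be compared per length. Each table holds 1 pooled FPKM value per condition, so single libraries cannot be examined, no SD can be printed and depth is not known. The control column was the same measurement in every table: control values of the 3 h table were 0.963 times those of the 24 h table and 1.03 times those of the 72 h table, with an SD of 0.000842 and 0.000854 on the log2 scale. Differences at 24 h and 72 h therefore include any change with time in culture, which cannot be told apart from PDP. The 6 genes chosen as markers of the line (KRT8, KRT18, VIM, NEFL, NEFM and INA) lay between 0.676 and 399 FPKM, and 4 blood and liver genes between 0 and 0.389 FPKM. INA was the lowest of the 6, between 0.676 and 0.871 FPKM, and the other markers lay at 17.0 FPKM or more.

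Histones are the proteins that DNA is wound on. H2A, H2B, H3 and H4 form the core of the nucleosome, and the linker histone H1 binds where DNA enters and leaves it. Most genes of these clusters are replication-dependent: they are transcribed in S phase, have no introns, and their transcripts end in a stem-loop bound by SLBP in place of a poly(A) tail. Some of them are also known to make polyadenylated transcripts, above all in cells that leave the cell cycle. A poly(A) library measures these polyadenylated forms and captures the stem-loop forms poorly, so the values below need not stand for all transcripts of a gene. In bulk RNA, fewer cells that make a transcript and less transcript per cell cannot be told apart.

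Most clustered histone genes were low or at 0 in these libraries. Of the 75 genes, 21 were listed at 0 FPKM in every condition, among them the 4 genes known for expression in testis (HIST1H1T, HIST1H2AA, HIST1H2BA and HIST3H3). In the 72 h control 8 of 75 reached 1 FPKM and 30 stood at 0. The summed FPKM of all 75 genes was 58.4 with PDP at 3 h, 52.4 at 24 h and 263 at 72 h, against 59.1, 61.3 and 57.2 in the controls of the same tables. A single gene, HIST1H2BK, made up 46.1% and 43.2% of that sum with PDP at 3 h and 24 h, and 51.2% to 51.3% in the controls. At 72 h of PDP the leading gene was HIST1H1C, with 26.2%. The sum was thus close to control at 3 h and several times higher at 72 h, where 26 genes reached 1 FPKM with PDP.

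**Figure D1:**
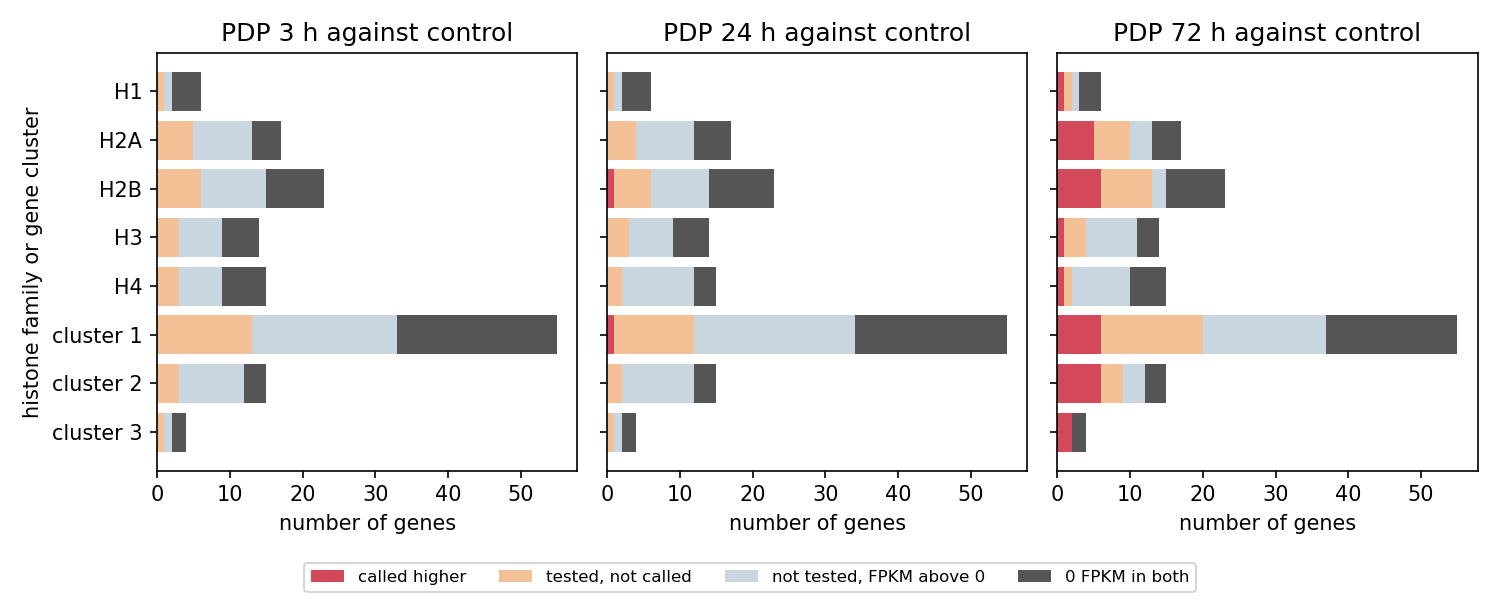
Number of genes (horizontal axis) in each histone family and gene cluster, split for each time point by the outcome of the authors' test. At 72 h 14 of 75 genes were called higher, at 24 h 1 and at 3 h 0, while 23 to 27 genes were at 0 FPKM in both conditions.

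A gene is called here where the authors' deposited table gives a q-value under 0.05, and the standard error (SE) of a log2 fold change is the one implied by the statistic in that table. The labels mark the 2 libraries of a group as bio1 and bio2 and do not say whether these were separate cultures. Not every member could be tested: the authors tested 18 of 75 at 3 h, 16 at 24 h and 31 at 72 h. Of the other members 30, 33 and 21 had some FPKM and the rest were at 0 in both conditions. A gene with almost no control value enters the test only if PDP raised it, so the tested members are not all members.

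At 3 h none of the 18 tested members was called in the authors' deposited table, in the columns of a Cuffdiff gene test, where 0.108% of all tested genes were called higher and 0.00678% lower. Unadjusted p-values under 0.05 were held by 2 members in the authors' deposited table, HIST4H4 (p = 0.0499) and HIST2H2BF (p = 0.0477), both chosen for mention after their values were seen. Over all 75 genes PDP values were above control for 24 and below it for 24. The median log2 fold change of the 36 genes with FPKM above 0 in both conditions was 0.16, against -0.0026 over all tested genes.

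Of the 16 members tested at 24 h, 1 was higher (6.25%) and 0 were lower by the q-values of the authors' deposited table, against 9.21% of all tested genes higher and 8.29% lower, so the count of members was near the background. Of the 16 members, 3 had an unadjusted p under 0.05. PDP values were above control for 23 genes and below it for 26, and the median log2 fold change of 39 genes was -0.07, against -0.0036 over all tested genes. The called member was HIST1H2BN, an H2B gene, with 2.26 FPKM in PDP cells against 0.524 FPKM in control cells. Its log2 fold change was 2.11 (SE 1.10), with q = 0.0111 in the authors' deposited table, and its locus in the tables holds 3 further genes. At 72 h HIST1H2BN had 1.25 FPKM in PDP cells against 0.488 FPKM in the control and was not called (q = 0.0894 in the authors' deposited table). The H3 genes had the lowest summed level relative to control at 24 h, 1.28 FPKM with PDP against 3.96 FPKM in the control. None of the 3 tested H3 genes was called there, and HIST1H3B, which encodes histone H3, had an unadjusted p of 0.0118 (q = 0.0621) in the authors' deposited table, with 0 FPKM in PDP cells and 0.839 FPKM in the control.

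At 72 h every clustered histone gene that was called was higher with PDP. Of the 31 tested members, 14 were called higher (45.2%) and 0 called lower in the authors' deposited table. Over all tested genes 31.8% were called, 19.0% higher and 12.8% lower. PDP values were above control for 44 of the 75 genes and below it for 8. The median log2 fold change of the 42 genes with FPKM above 0 in both conditions was 1.79, against 0.13 over all tested genes. Because the test is open to genes through their PDP value, the same was read for the 39 genes with a control FPKM of at least 0.1, a minimum that does not use PDP. Of these, 34 lay above control and 5 below, and 28 were tested, of which 12 were called higher and 0 lower in the authors' deposited table. The minimum does not free the calls from the PDP value. With the same minimum 18 members were tested at 3 h and 16 at 24 h, so the 12 of 28 still rests on which members entered the test. The 34 above and 5 below control do not use test status. The median of the 39 genes was also 1.79, over tested and untested members with FPKM above 0 in both conditions. Over all genes tested with that minimum the median was 0.12, and 19.0% were called higher. With 0.1 added to each FPKM and all 75 genes kept, the median was 0.365.

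**Figure D2:**
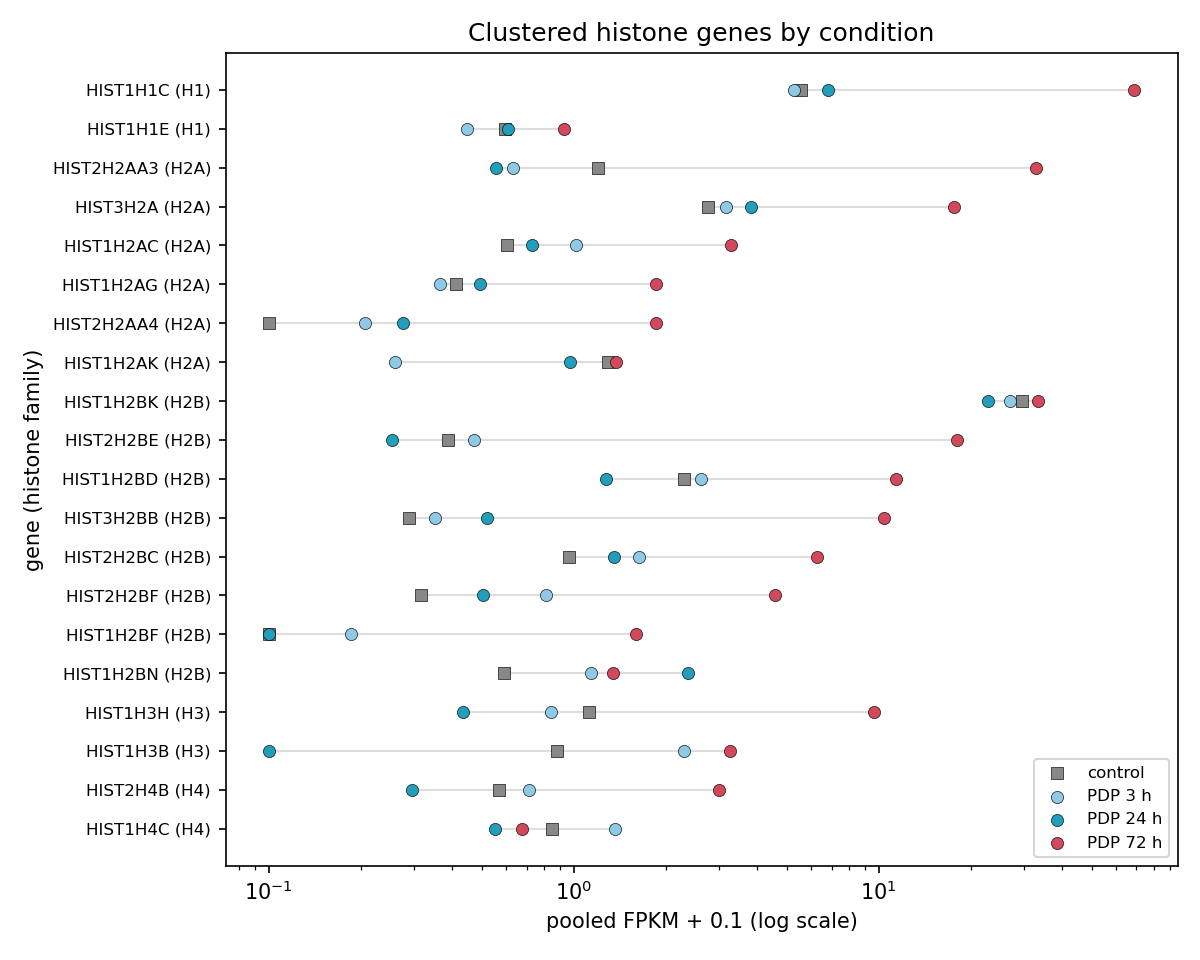
Pooled FPKM + 0.1 (log axis) of the called members and of the members of highest control level in each family, in the control of the 72 h table and with PDP at 3 h, 24 h and 72 h. The 72 h point lies to the right of all others for most genes, while HIST1H2BK stays between 22.6 and 33.1 FPKM with PDP, against 29.3 FPKM in the control.

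Promoters are shown for HIST2H2BE and HIST3H2BB, of the largest fold changes at 72 h among called genes with a control above 0 FPKM, for HIST1H1C, of the highest level with PDP at 72 h, and for HIST1H2BK, of the highest control level. Each is the RefSeq sequence (GRCh38.p14) just before the gene's start, read 5′ to 3′ on the gene's strand. HIST2H2BE is chr1:149886683-149886932 on the minus strand, HIST3H2BB chr1:228457853-228458102 on the plus strand, HIST1H1C chr6:26056471-26056620 on the minus strand and HIST1H2BK chr6:27146859-27147008 on the minus strand. Capitals mark the CCAAT box (CCAAT), the TATA box (TATAAA), the octamer of H2B promoters (ATTTGCAT) and the AC box of H1 promoters (AAACACA), each on either strand.
HIST2H2BE: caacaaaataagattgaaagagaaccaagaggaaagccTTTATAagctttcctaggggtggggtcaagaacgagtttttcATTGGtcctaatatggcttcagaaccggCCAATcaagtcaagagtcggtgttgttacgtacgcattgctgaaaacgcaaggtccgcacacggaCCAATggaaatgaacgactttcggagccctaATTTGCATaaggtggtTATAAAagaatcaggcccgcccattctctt
HIST3H2BB: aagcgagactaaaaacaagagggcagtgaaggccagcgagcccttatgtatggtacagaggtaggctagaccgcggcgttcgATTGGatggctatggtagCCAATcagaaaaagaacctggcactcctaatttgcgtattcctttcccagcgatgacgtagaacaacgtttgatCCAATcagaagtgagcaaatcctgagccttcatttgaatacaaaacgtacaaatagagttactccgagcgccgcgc
HIST1H1C: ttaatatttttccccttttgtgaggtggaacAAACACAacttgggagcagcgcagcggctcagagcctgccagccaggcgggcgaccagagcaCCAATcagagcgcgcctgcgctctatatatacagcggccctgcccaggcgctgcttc
HIST1H2BK: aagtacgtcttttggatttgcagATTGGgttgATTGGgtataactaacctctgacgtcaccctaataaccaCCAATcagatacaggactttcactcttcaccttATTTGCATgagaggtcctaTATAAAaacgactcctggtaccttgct

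The HIST2H2BE stretch holds 2 TATA boxes, 1 on each strand, with 3 CCAAT boxes and 1 octamer. HIST1H2BK also holds 3 CCAAT boxes, 1 TATA box and 1 octamer in its 150 bases, so genes that were called and genes that were not both hold these motifs. RefSeq held a promoter for 65 of the 75 members. In the 250 bases before the start, CCAAT was present in 55 of 65 members (84.6%), against 33.0% of 27305 promoters. TATAAA was in 43 (66.2%, against 11.1%) and ATTTGCAT in 26 (40.0%, against 1.66%). ATTTGCAT was found in 14 of 18 H2B, 11 of 16 H2A and 1 of 12 H3 promoters, and AAACACA in 6 members, which were the 6 H1 genes, against 4.95% of all promoters. Members that stand head to head have overlapping windows, so 1 motif between them can be counted for both. The H3 gene with ATTTGCAT was HIST1H3D, which starts 223 bases from HIST1H2BF, also a holder of it. The motif counts are therefore not all of separate promoters. Of the members called higher at 72 h, 13 had a promoter sequence, and 12 of these held CCAAT and 5 ATTTGCAT, while of 52 members not called 43 held CCAAT and 21 ATTTGCAT. The G-quadruplex motif, with 4 runs of at least 3 G and loops of 1 to 7 bases on either strand, was in 5 members (7.69%), HIST1H1A, HIST1H4F, HIST1H4H, HIST2H3A and HIST2H3C, against 22.6% of all promoters. Of these 5, the authors tested HIST1H4H at 3 h and HIST2H3C at 72 h and called neither, and the others were not tested at any time.

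Among the 6 clustered H1 genes, HIST1H1C, which encodes the linker histone H1.2, carried nearly all of the summed level. It lies on chromosome 6 in a locus from 26055787 to 26056428 (GRCh38, as the submitters' processing notes name it). It measured 5.16 FPKM at 3 h of PDP, 6.72 FPKM at 24 h and 68.7 FPKM at 72 h, against 5.64, 5.86 and 5.46 FPKM in the controls of those tables. The first pair of time points lay close to control and only the last stood apart. The 72 h change was 12.6-fold, a log2 fold change of 3.65 (SE 0.36), with q = 0.000393 in the authors' deposited table. HIST1H1C made up 98.6% of the summed H1 level in PDP cells at 72 h and 91.7% in the control. HIST1H1E, which encodes H1.4, had 0.832 FPKM in PDP cells at 72 h against 0.497 FPKM in the control and was not called (log2 fold change 0.74, SE 1.03). The other 4 H1 genes were at 0 in the control, and at 72 h HIST1H1D, which encodes H1.3 and was named after its value was seen, was listed at 0.164 FPKM with PDP.

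The H2A genes summed to 67.2 FPKM in PDP cells at 72 h against 7.98 FPKM in the control. Of 17 members 10 were tested and 5 called higher in the authors' deposited table. HIST2H2AA3, an H2A gene of cluster 2, measured 0.531, 0.456 and 32.6 FPKM at 3 h, 24 h and 72 h of PDP, against 1.14, 1.18 and 1.10 FPKM in the controls. At both earlier times it was listed below control but not called, with log2 fold changes of -1.10 (SE 1.28) at 3 h and -1.38 (SE 1.42) at 24 h. At 72 h it was far above control, with a log2 fold change of 4.89 (SE 0.76) and q = 0.000393 in the authors' deposited table. Its near-identical copy HIST2H2AA4 had 1.76 FPKM with PDP at 72 h and was listed at 0 in the control, and was also called higher (q = 0.000393 in the authors' deposited table). How reads were divided between these copies is not stated, so the value of each is uncertain.

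HIST3H2A, the H2A gene of cluster 3, was among the few with a clear control level. It measured 3.07, 3.70 and 17.6 FPKM at 3 h, 24 h and 72 h of PDP, against 2.74, 2.85 and 2.66 FPKM in the controls. Its 72 h change was 6.62-fold, with the smallest SE of the called H2A genes (log2 fold change 2.73, SE 0.39; q = 0.000393 in the authors' deposited table). In cluster 1, HIST1H2AC had 3.17 FPKM in PDP cells at 72 h against 0.505 FPKM in the control, and HIST1H2AG 1.76 FPKM against 0.311 FPKM, and both were called higher in the authors' deposited table (q = 0.00135 and q = 0.00190). HIST1H2AK, with 1.28 FPKM in PDP cells and 1.20 FPKM in the control, was not called.

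The H2B genes held members of very different change. HIST1H2BK measured 26.9, 22.6 and 33.1 FPKM at 3 h, 24 h and 72 h of PDP, against 30.3, 31.4 and 29.3 FPKM in the controls. It was not called at any time in the authors' deposited tables, and its log2 fold change at 72 h was 0.18 (SE 0.33). HIST2H2BE of cluster 2 lies in a locus on chromosome 1 from 149884459 to 149886652. It measured 0.371, 0.154 and 17.9 FPKM at 3 h, 24 h and 72 h of PDP, against 0.295, 0.307 and 0.286 FPKM in the controls, and was called higher at 72 h, with a log2 fold change of 5.97 (SE 0.79) and q = 0.00135 in the authors' deposited table. HIST3H2BB of cluster 3 measured 0.250, 0.421 and 10.3 FPKM, against 0.195, 0.202 and 0.189 FPKM in the controls, and was called higher at 72 h, with a log2 fold change of 5.77 (SE 0.86) and q = 0.00190 in the authors' deposited table. From control levels well under 1 FPKM, both passed 10 FPKM at 72 h.

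HIST1H2BD, in a cluster 1 locus that holds 4 genes, had 11.3 FPKM in PDP cells at 72 h against 2.204 FPKM in the control (log2 fold change 2.36, SE 0.72; q = 0.00386 in the authors' deposited table). At 24 h it had 1.18 FPKM in PDP cells against 2.36 FPKM in the control and was not called. HIST2H2BF had 4.46 FPKM in PDP cells at 72 h against 0.215 FPKM in the control, and HIST2H2BC, which RefSeq lists as a transcribed pseudogene, 6.15 FPKM against 0.867 FPKM. HIST1H2BF had 1.50 FPKM with PDP and was listed at 0 in the control. These 3 were called higher in the authors' deposited table, with q = 0.00190, q = 0.0155 and q = 0.000393. HIST1H2BJ, chosen for mention after its values were seen, had 8.13 FPKM in PDP cells against 0.562 FPKM in the control. Its log2 fold change was 3.85 with an implied SE of 1.30, yet its p-value was 0.256 in the authors' deposited table, so SE and p-value need not measure the same spread.

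The H3 and H4 genes had the lowest summed levels with PDP at 72 h, 16.3 FPKM for H3 against 3.69 FPKM in the control, and 6.43 FPKM for H4 against 3.05 FPKM. HIST1H3H, which encodes histone H3, measured 0.742, 0.332 and 9.55 FPKM at 3 h, 24 h and 72 h of PDP, against 1.05, 1.09 and 1.02 FPKM in the controls. It was the called member of 4 tested H3 genes, with a log2 fold change of 3.23 (SE 0.61) and q = 0.000393 in the authors' deposited table, and made up 58.5% of the summed H3 level with PDP at 72 h. HIST1H3B had 3.16 FPKM in PDP cells at 72 h against 0.781 FPKM in the control and was not called. Among 15 H4 genes 2 were tested at 72 h. HIST2H4B had 2.90 FPKM in PDP cells against 0.468 FPKM in the control and was called higher (log2 fold change 2.63, SE 0.94; q = 0.0101 in the authors' deposited table). It has a near-identical copy, HIST2H4A, which had 0.590 FPKM in PDP cells against 0.209 FPKM in the control. HIST1H4C, the H4 gene of highest control level, had 0.577 FPKM in PDP cells against 0.746 FPKM in the control and was not called.

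**Figure D3:**
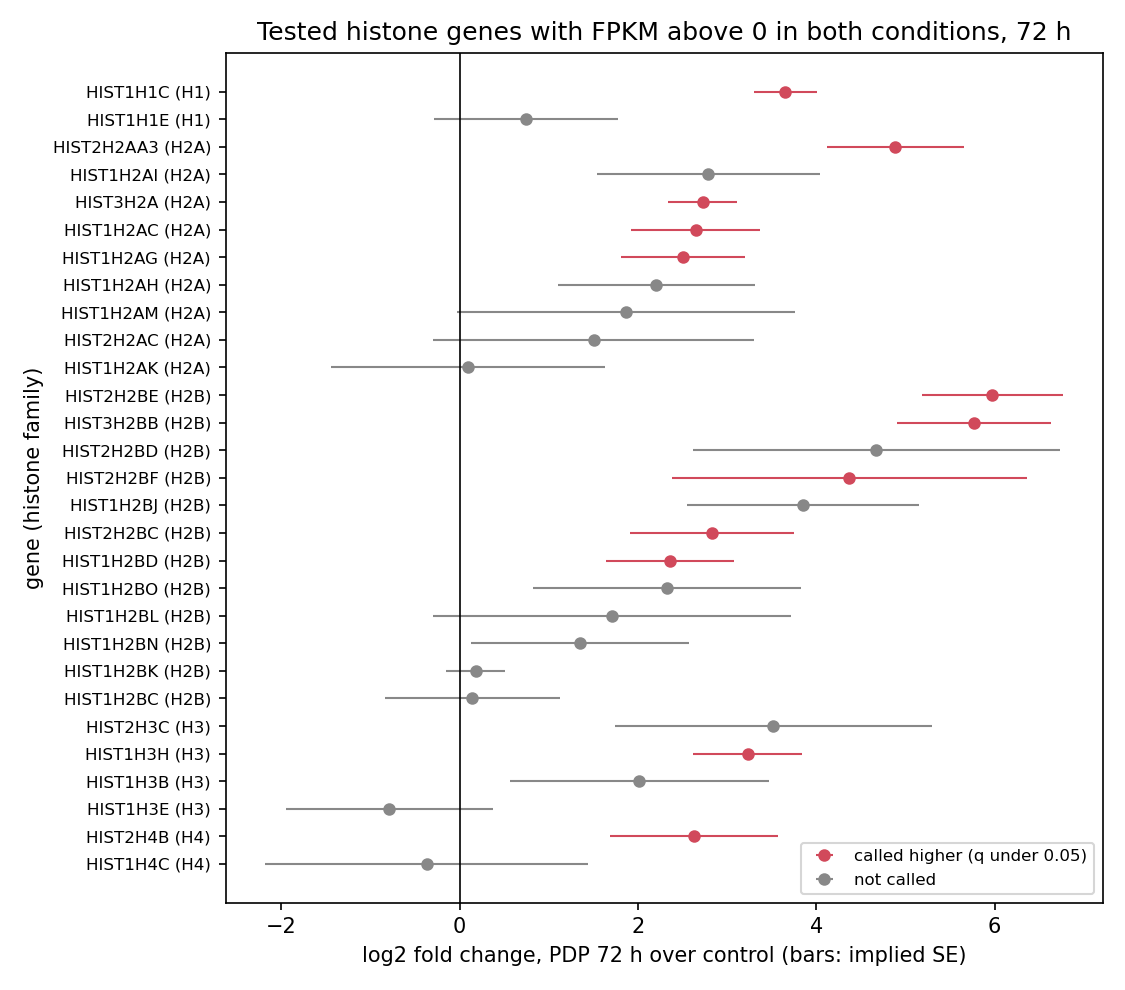
Log2 fold change of PDP at 72 h over control, with bars of 1 implied SE, for the tested members with FPKM above 0 in both conditions, grouped by histone family. Of the called genes HIST2H2BE (5.97) and HIST3H2BB (5.77) lie farthest to the right, and HIST1H2BK (0.18) lies near 0 with a short bar.

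Summed over a family, the level with PDP at 72 h over that of the control was 11.7-fold for H1, 8.42-fold for H2A, 2.82-fold for H2B, 4.42-fold for H3 and 2.11-fold for H4. These ratios rest on few genes. Without HIST1H1C the H1 ratio was 1.00 on the log2 scale in place of 3.55, and without HIST1H2BK the H2B ratio was 3.28 in place of 1.50. Without its member of highest FPKM the log2 ratio was 2.33 in place of 3.07 for H2A, 1.34 in place of 2.14 for H3 and 0.45 in place of 1.08 for H4. No test of the difference between families was made, since members are not replicates. The counts of genes called higher in the authors' deposited table were 1 of 2 tested for H1, 5 of 10 for H2A, 6 of 13 for H2B, 1 of 4 for H3 and 1 of 2 for H4. Over all tested genes 19.0% were called higher at 72 h, and the counts for H1, H3 and H4 rest on 2 to 4 tested genes.

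By place, 6 of the 15 members of cluster 2 were called higher at 72 h in the authors' deposited table, 6 of 55 in cluster 1 and 2 of 4 in cluster 3. Of the tested members these were 6 of 9, 6 of 20 (30%) and 2 of 2, against 19.0% of all tested genes called higher. The median log2 fold change was 2.83 over 11 cluster 2 genes, with all 11 above 0, and 0.86 over 28 cluster 1 genes, with 23 above 0. The 11 genes include the near-identical copies HIST2H4A and HIST2H4B, and HIST2H2AA3, which has a near-identical copy. They also include HIST2H3C, in the same locus as HIST2H4A, and HIST2H3A, in the same locus as HIST2H4B. Whether these or further cluster 2 members are copies of one another was not examined. They are therefore not all separate readings. Summed FPKM was 72.3 with PDP against 3.94 in the control for cluster 2, 162 against 50.1 for cluster 1, and 27.9 against 2.85 for cluster 3. HIST2H2AA3 gave 45.1% of the cluster 2 sum with PDP. The difference between clusters was not tested. HIST4H4, outside the 3 clusters and chosen for mention after its values were seen, measured 0.908, 1.22 and 0.833 FPKM at 3 h, 24 h and 72 h of PDP, against 0.305, 0.317 and 0.296 FPKM in the controls. In the authors' deposited tables it was tested and not called at 3 h and at 24 h (q = 0.0696 at 24 h), and was not tested at 72 h.

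The length of the gene model bears on how a histone transcript can be counted. Of 58 members alone in their locus, 42 had a locus under 1 kb, and 31 of these 42 lengths were multiples of 3, as a coding length with no UTR would be. At 72 h 15 of the 42 were tested and 5 called higher in the authors' deposited table (11.9% of the 42), and 19 were at 0 in both conditions (45.2%). Of the 16 members alone in a locus of 1 kb or more, 9 were tested and 6 called higher (37.5% of the 16), and 1 was at 0 in both conditions (6.25%). The share called higher over all tested genes was 19.0%, a share that leaves out untested genes. The median log2 fold changes at 72 h were close, 1.86 over 18 short loci and 1.998 over 12 longer ones. Reads in a 3′ extension that a short model lacks would not be counted, and the part of this in the counts above was not tested. Transcripts as short as a library fragment also get an uncertain FPKM, and how the authors corrected for this is not stated in the sources used here.

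Many H2A and H2B genes stand head to head and share the stretch between them as promoter. Among the 65 members with a promoter sequence, 12 head-to-head pairs of members had overlapping promoter windows. A pair in which a member has no promoter sequence is not counted. At 72 h 1 pair had both genes called higher in the authors' deposited table, 5 had 1 gene called, 6 had none, and in 3 of these last both genes were at 0. Over all tested genes 19.0% were called higher, a share of single genes, and several genes of these pairs were not tested. The counts of pairs are therefore only described. HIST1H2BF stands in 2 of the 5 pairs with 1 called gene, once with HIST1H2AD and once with HIST1H3D. HIST2H2BE and HIST2H2AC start 236 bases apart. HIST2H2AC, an H2A gene named for its place in the pair, had 1.04 FPKM in PDP cells at 72 h against 0.367 FPKM in the control and was not called, beside 17.9 FPKM in PDP cells for HIST2H2BE. HIST3H2A and HIST3H2BB start 230 bases apart and were the pair with both genes called. HIST1H2BJ had 8.13 FPKM in PDP cells beside 1.76 FPKM for its partner HIST1H2AG. The genes of a pair could thus differ widely in measured FPKM. Their models also differ in length, with a locus of 390 bases for HIST2H2AC and 2194 bases for HIST2H2BE. The part of model length in these differences was not tested, and HIST1H2BJ was not called. The kit keeps strand, but whether the authors' counting used it is not stated.

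**Figure D4:**
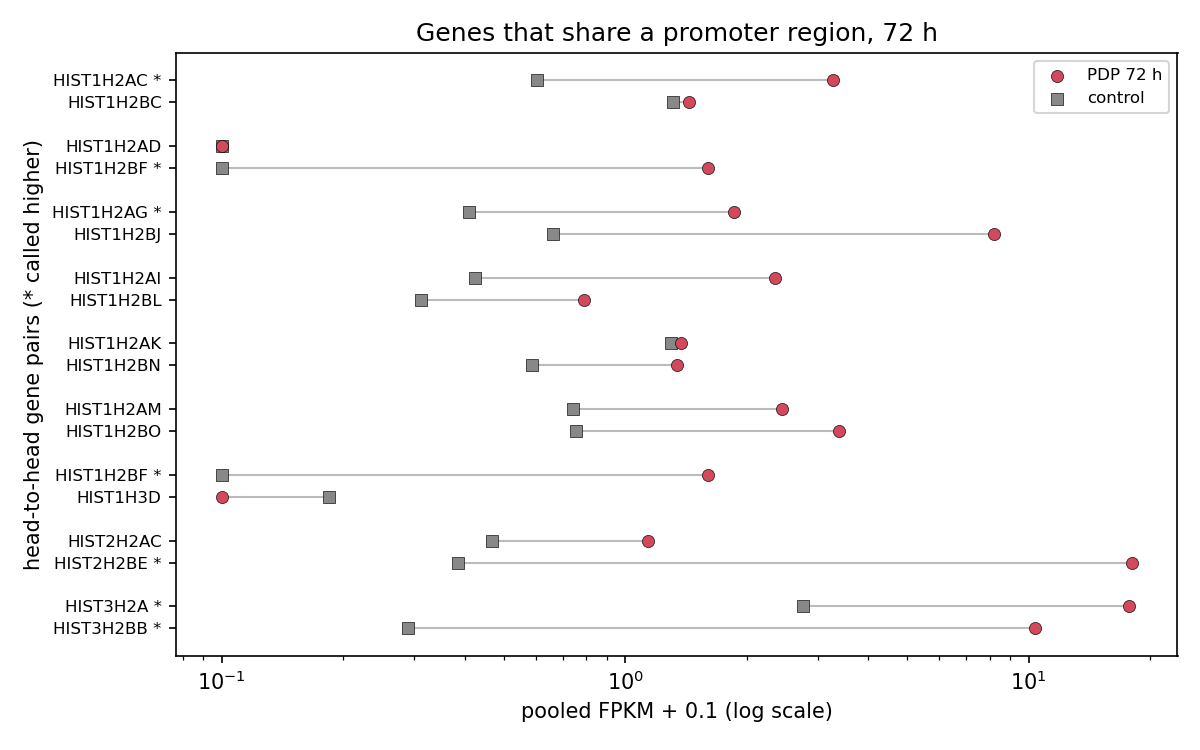
Pooled FPKM + 0.1 (log axis) with PDP at 72 h (circles) and in the control (squares) for head-to-head pairs with some FPKM, each pair on neighbouring rows. HIST2H2BE reaches 17.9 FPKM while its partner HIST2H2AC reaches 1.04 FPKM, and in the HIST3H2A and HIST3H2BB pair both genes lie above 10 FPKM.

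In the pull-down of annealed DNA the authors list 51446 peaks found in both replicates, each with an average score whose unit is not stated. Peak centres lay within 1 kb of 3 of 68 member loci (4.41%), against 31.4% of the 33640 loci in the tables. Loci differ in length, and of the 42 member loci under 1 kb none had a peak centre within 1 kb, which allows a share of up to 7.14% (counting error only), against 3.76% of 9717 loci of that length. Within 5 kb, 16.7% of the short member loci and 16.4% of all short loci had a peak centre. At this number of loci no difference from other short loci was detectable. The 3 members were HIST1H2AC, with a peak of score 16.1, HIST1H4H (score 10.9) and HIST2H2AB (score 14.3). Their peak centres lay inside long loci, of 14972, 8030 and 13275 bases in that order, and the HIST2H2AB locus holds 2 genes. A peak in such a locus need not lie at the histone coding sequence. Of these HIST1H2AC was called higher at 72 h in the authors' deposited table. HIST1H4H had 0.427 FPKM in PDP cells against 0.247 FPKM in the control and was not tested, and HIST2H2AB was at 0 in both conditions. Across the chromosome 6 cluster from 25726132 to 27893843 the list held 46 peaks, 21.2 per Mb, against 21.1 per Mb over the chromosome. On chromosome 1, with 21.1 peaks per Mb, the 0.118 Mb that hold 13 of the 15 cluster 2 members had 1 peak, and the 0.0398 Mb of cluster 3 had 3. HIST2H2BA and HIST2H2BB lie outside that span of cluster 2. Spans this short hold too few peaks for a comparison.

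Genes that make, process and package histones were read from 4 lists. Their counts stand beside 8.29% lower and 9.21% higher calls over all tested genes at 24 h, and 12.8% lower and 19.0% higher at 72 h. Of 34 tested genes of histone transcription and transcript processing, the authors' deposited tables called 0 at 3 h, 1 higher and 9 lower at 24 h, and 2 higher and 11 lower at 72 h, and the median of their log2 fold changes at 72 h was -0.07. At 3 h none of the 34 had an unadjusted p under 0.05. SLBP, which binds the stem-loop, had 58.9 FPKM in PDP cells at 72 h against 80.7 FPKM in the control and fell by 0.45 on the log2 scale (SE 0.20; q = 0.00748 in the authors' deposited table). NPAT, the coactivator of histone gene transcription, had 6.27 FPKM in PDP cells against 11.0 FPKM in the control and was not called (q = 0.129 in the authors' deposited table). E2F1, a transcription factor of S phase entry, fell to 15.6 FPKM in PDP cells at 72 h, against 28.2 FPKM in the control, and CCNE2, a cyclin E, to 10.2 FPKM, against 21.9 FPKM. CTIF, a translation factor for histone transcripts, rose to 26.4 FPKM with PDP, against 8.52 FPKM in the control, and XRN1, a 5′ to 3′ exonuclease, to 25.8 FPKM, against 12.3 FPKM.

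Histone chaperones, which carry histones to DNA, had 9 of 24 tested genes called lower and 2 higher at 72 h, and 3 lower and 0 higher at 24 h, in the authors' deposited tables. The 24 h count was near the background. ASF1A fell to 6.30 FPKM in PDP cells at 72 h, against 23.5 FPKM in the control, ASF1B to 15.3 FPKM, against 41.3 FPKM, and NASP to 160 FPKM, against 299 FPKM. Of 24 S phase genes 12 were called lower and 2 higher at 72 h, with a median of -0.38, and 11 lower and 0 higher at 24 h, with a median of -0.39, in the authors' deposited tables. FEN1, the flap endonuclease of lagging-strand synthesis, fell to 28.4 FPKM in PDP cells at 72 h, against 84.7 FPKM in the control, with UNG and CDC6 also among the largest changes (-1.48 and -1.41 on the log2 scale). The part of the cell cycle in the histone values was not tested.

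Histone variant genes outside the clusters, whose transcripts carry poly(A) tails, were called higher for 4 of 11 tested genes and lower for 1 at 72 h in the authors' deposited table, and the median of their log2 fold changes was 0.09. At 24 h 2 were called higher and 3 lower in the authors' deposited table, with a median of -0.26. H1F0, the linker histone variant known from cells that stop dividing, rose to 146 FPKM in PDP cells at 72 h, against 19.4 FPKM in the control (log2 fold change 2.91, SE 0.20), and at 24 h to 34.2 FPKM, against 20.8 FPKM. H2AFJ, an H2A variant, rose to 6.97 FPKM, against 2.09 FPKM, and H1FX, a further linker histone, to 163 FPKM, against 72.1 FPKM. Of the linker histones, H1.2 (HIST1H1C, 68.7 FPKM), H1F0 and H1FX were called higher at 72 h in the authors' deposited table. H1F0 and H1FX were named because they were called, and HIST1H1E, which encodes H1.4, was tested and not called.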

How the data were processed

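The submitters' processing notes name HISAT2 2.0.5, Cufflinks 2.2.1, HOMER 4.9.1 and the build GRCh38.p7, with no settings. The authors' deposited FPKM is 1 value per condition over 2 libraries, and each p-value and q-value in the authors' deposited tables is that of their test of PDP against control. The q-values differed by at most 5.27e-07 from Benjamini-Hochberg values over all tested genes. The authors' deposited score columns are the test statistic, used only for the implied SE (log2 fold change divided by it), and the peak score. Log2 fold changes were computed from FPKM with no pseudocount, for genes above 0 in both conditions. The columns hold no value per library, so no model was refitted and depth is unknown.

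The members and lists were chosen with earlier results of these data known. Named genes were the called members, the 2 of highest control FPKM per family, the 2 of highest PDP FPKM at 72 h per cluster, members with a peak, and of each list the 3 largest called changes with SLBP, NPAT and E2F1. Other members named were chosen after their values were seen. All 75 members matched RefSeq (GRCh38.p14). Of the list symbols, 34 of 36, 24 of 26, 15 of 15 and 24 of 24 were in the tables. Alternatives changed the q threshold (0.01), the FPKM minimum, the pseudocount, the scaling, the gene set and the peak window. The steps were tested on simulated data. Python 3.11.15 was used with pandas 2.3.3, NumPy 2.4.6 and Matplotlib 3.10.9.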

Additional observations from a re-analysis of the deposited data

Results flagged for a closer look

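HIST1H3PS1, an H3 pseudogene symbol that the choice of members left out, had 0.725 FPKM with PDP at 72 h and was listed at 0 in the control, and the authors' deposited table called it higher with q = 0.0441. It stood out because it is a signal in data that the comparisons did not use. It was the called gene among the 14 left-out symbols at 72 h, of which 1 was tested and 12 were at 0 in both conditions. At 3 h and 24 h HIST1H3PS1 was listed at 0 in both conditions.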

How the results depend on the processing

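A summary value was taken as unchanged where it moved by less than the median implied SE of the tested members (1.2, 1.1 and 1.1 on the log2 scale at 3 h, 24 h and 72 h), which is a wide margin, and a count where it stayed within 1.5 times. By that measure 76 of the alternatives left the result unchanged and 8 did not. Changes of sign near 0 also passed as unchanged. Without its highest member the log2 ratio of summed FPKM went from 0.34 to -0.19 for H3 at 3 h, and from -0.30 to 0.25 for H2B at 24 h. Each alternative for a count kept a part of the same calls, so the 0 calls at 3 h and 0 lower calls at 72 h could not change. The 24 h count of 1 became 0 at a q under 0.01 and 0 with members alone in their locus, since HIST1H2BN shares its locus. The 72 h count of 14 became 9 without members alone in a locus under 1 kb, and lay between 9 and 14 over 8 alternatives, with no lower call at q under 0.05. The 72 h median of 1.79 became 0.59 with a pseudocount of 1, and 0.365 with a pseudocount of 0.1 and all 75 genes, 23 of which were at 0 in both conditions, while the pseudocount of 0.1 alone gave 1.32. At 72 h the log2 ratio of summed FPKM became 1.00 for H1 without HIST1H1C and 3.28 for H2B without HIST1H2BK. Members with a peak became 12 with a 5 kb window. Equal FPKM sums shift each log2 fold change by 0.17 (24 h) and -0.10 (72 h), which turned the 24 h median of -0.07 to 0.10 and left the 72 h median at 1.69. Leaving out near-identical pairs or short loci, and keeping all 75 genes, were alternatives chosen after seeing the data. No paired analysis was possible because the tables hold 1 pooled value per condition, and for the same reason no replicate could be left out. Low FPKM of short genes and unknown depth limit the 3 h and 24 h readings.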
